A study of Bos taurus with 5 samples.

Results

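The loci described here are annotated bovine genes that carry an Ensembl identifier in place of a gene symbol. They were taken from a table of longissimus dorsi RNA as all gene identifiers whose name field begins with the identifier itself, without rows of assembled transcripts and without 4 very abundant loci on chromosome 2. This left 1360 loci among the 9022 genes of the table, against 7579 genes with a symbol. The muscle came from 5 Jiaxian Red cattle aged 18 months, with 1 library per animal, no treatment named and no second group. The deposited unit is FPKM, which corrects fragment numbers for the length of the transcript and the total of the library, and transcripts of a gene were added up here. The stated aim of the sequencing was a search for candidate genes of muscle development. Read depth is unknown because no counts were given; the FPKM of all rows summed to between 193706 in library 1 and 223251 in library 4.

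A gene without a symbol is a place where an annotation pipeline found evidence of a transcript but no named gene could be assigned to it. Such loci commonly hold extra copies of known genes, processed pseudogenes (copies of a messenger RNA pasted back into the genome), pieces of a long gene annotated apart from it, and genes whose name was assigned only in a later release. Long muscle genes with many exons, such as that of dystrophin, are often annotated in pieces. Where a locus shares sequence with another copy, reads may not be assigned to either with certainty. The values of the pseudogene and histone loci below may be uncertain for this reason, but sequence sharing was not measured.

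The tissue label was checked on marker genes. Of 8 fibre genes 7 were listed, all at a mean of 1 FPKM or more, and their sum ran from 21915 FPKM in library 1 to 27833 in library 4. Other cell types gave lower sums: 316 to 651 FPKM over 2 fibroblast genes, 54.8 to 64.3 over 4 endothelial genes, 20.6 to 58.6 over 3 smooth muscle genes and 28.1 to 44.1 over 2 nerve genes. The 2 listed leukocyte genes summed to 1.77 to 3.97 FPKM, the erythroid gene HBB ran from 0.253 to 3.09, and the satellite cell gene PAX7 from 0.135 to 1.36. The 4 adipocyte markers looked up gave no value and were not analysed here. In bulk tissue, fewer cells of a type and less RNA per cell cannot be told apart.

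The loci were mostly short, and about as many lay under the detection limit as above it. Detection, defined as a mean of 1 FPKM or more, was met by 678 of the 1360 loci (49.9%), where 68.1% of all annotated genes met it and 71.3% of the genes with a symbol. Of the remaining loci, 542 had a mean between 0 and 1 FPKM and 140 (10.3%) were listed at 0 in every library, against 27 (0.356%) of the genes with a symbol. A mean of 10 FPKM or more was reached by 249 of the 1360 loci (18.3%), against 25.3% of the genes with a symbol. A mean of 100 or more was reached by 16 (1.18%), against 2.59%. The level of those detected was close to that of named genes, with a median of the mean FPKM of 6.07 against 6.48. In all, the loci held 6.43% ± 0.674 of the summed FPKM (SD, n = 5), from 5.41% in library 4 to 7.02% in library 1.

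Span, the distance on the chromosome from the first to the last base of a gene, went with detection. The median span was 1939.5 bases for the loci without a symbol and 36646 for genes with one. A span under 1000 bases was held by 439 loci (32.3%) but by only 32 named genes. Of the loci under 1000 bases 42.6% were detected, and of those from 1000 to 9999 bases 42.3%, against 75.4% from 10000 to 99999 and 75.0% at 100000 or more. Among named genes the share stayed between 68.1% and 75.0% in these 4 classes. The loci were almost all of a single listed transcript (1286 of 1360, 94.6%), against 65.9% of genes with a symbol. On unplaced scaffolds lay 28 (2.06%), against 0.0924%. Chromosomes 18, X and 5 held the most, 89, 88 and 79. The loci made up 28.0% of the annotated genes on chromosome X, 22.8% on 23, 21.7% on 18 and 15.9% on 5. Among all 8943 annotated genes, 1360 were such loci.

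**Figure D1:**
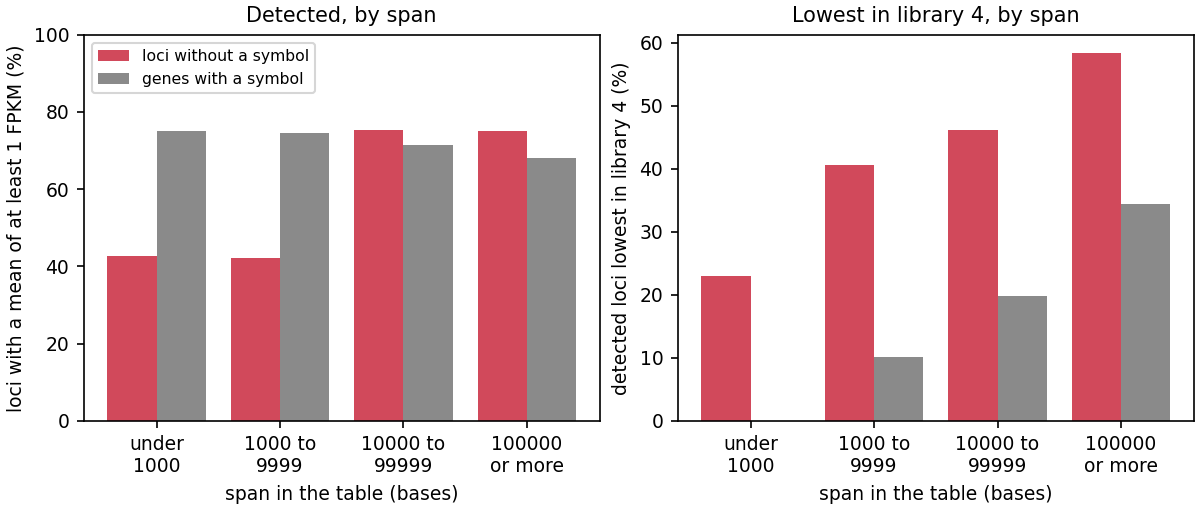
Share of loci with a mean of at least 1 FPKM (left) and share of detected loci with their lowest value in library 4 (right), by span in the table, for loci without a symbol (red) and genes with a symbol (grey). Short loci without a symbol were detected in 42.6% of cases, and in both sets the share lowest in library 4 was greatest at 100000 bases or more.

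To see what the loci are, their positions were set beside the RefSeq gene table of the assembly ARS-UCD2.0. A locus was said to lie at the place of a RefSeq gene when both shared at least 50% of the bases that either covers. Of 7418 genes with a symbol the same rule placed 6807, and it named the correct symbol in 6775 of these (99.5%). How often it is correct for the loci, which are mostly shorter, was not measured. The rule placed 567 of the 1360 loci: 134 at a gene with a symbol of its own, 230 at a gene known by a LOC number only, and 203 at a pseudogene. A further 542 loci had at least 90% of their span inside a larger RefSeq gene. Partial overlap was found for 139, no overlap for 84, and the 28 on scaffolds were not placed. Whether a locus lies in an exon or an intron, and on which strand, was not analysed here.

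The share detected differed between these classes. It was 76.1% (102 of 134) at genes with a symbol, 57.4% (132 of 230) at LOC genes, 48.3% (98 of 203) at pseudogenes and 45.9% (249 of 542) inside larger genes, but 11.9% (10 of 84) where no RefSeq gene overlapped. The classes also differ in length, with a median span of 17080.5 bases at genes with a symbol and 579 at pseudogenes. The level of the detected loci differed less, from a median of 5.35 FPKM at LOC genes to 7.67 at genes with a symbol, with 4.82 on scaffolds and 2.34 where nothing overlapped.

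The most abundant locus lay at the place of COX7C, a nuclear-encoded small subunit of cytochrome c oxidase, the last complex of the respiratory chain. This locus, ENSBTAG00000039555 on chromosome 7 from 86288717 to 86290947, shared 97.2% of the covered bases with COX7C, a symbol with no row of its own in the table. Libraries 1 to 5 gave 891, 610.1, 1189.6, 755 and 987 FPKM, on average 887 ± 221 (SD, n = 5). Library 3 was highest and library 2 lowest. The locus ranked 29th of all annotated genes. The named muscle subunit gene COX7A1 averaged 343 ± 103 FPKM and lay below this locus in all 5 libraries.

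**Figure D2:**
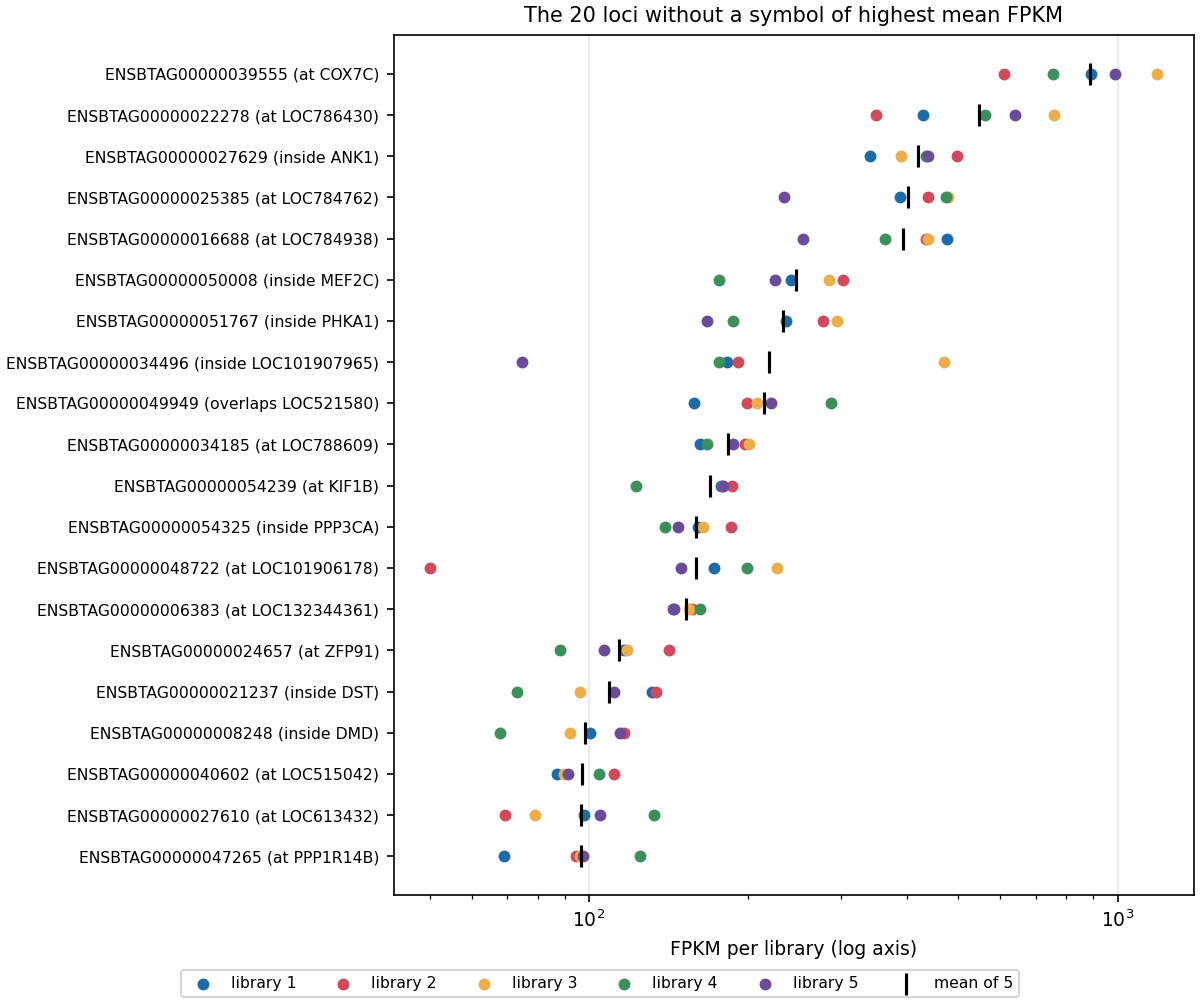
FPKM of each library (coloured points, log axis) and mean (black bar) for the 20 loci without a symbol of highest mean. The leading locus, at COX7C, ran from 610.1 to 1189.6 FPKM, and ENSBTAG00000006383 was the most even of the 20.

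Of the 137 loci placed at a RefSeq gene or pseudogene with a symbol other than a LOC number, 122 stood for a symbol with no other row, and 91 of these were detected. After COX7C came KIF1B, a kinesin motor of axonal and organelle transport. Its locus, ENSBTAG00000054239, was at 177, 187, 179, 123 and 180 FPKM in libraries 1 to 5, so that library 4 stood below a tight group of 4. ZFP91, a zinc finger protein that acts as a ubiquitin ligase, was represented by ENSBTAG00000024657 at 114 ± 19.5 FPKM (SD, n = 5), again lowest in library 4 at 88.1 FPKM. PPP1R14B, which encodes an inhibitor of protein phosphatase 1, went the other way. Its locus ENSBTAG00000047265 was at 68.9 FPKM in library 1, between 94.4 and 97.6 in libraries 2, 3 and 5, and at 125 in library 4.

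The locus at DDI2, a protease that activates the proteasome regulator NRF1, differed between animals by more. ENSBTAG00000039662 was at 149 FPKM in library 2, 98.4 and 96.0 in libraries 1 and 5, while libraries 3 and 4 gave 62.6 and 60.0. At the salt-inducible kinase gene SIK1, ENSBTAG00000011437 ran from 11.4 FPKM in library 4 to 49.7 in library 1, and at the immediate-early gene IER5, ENSBTAG00000052226 ran from 20.5 in library 4 to 37.7 in library 2. Loci at LUC7L2 and SNRNP70, both splicing genes, were more even, at 48.7 ± 6.21 and 31.7 ± 4.47 FPKM (ENSBTAG00000017770 and ENSBTAG00000048800). The dynein light chain gene DYNLT1 had its locus, ENSBTAG00000004472, at 19.4 FPKM in library 1 and 33.0 in library 4.

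Functional classes were small. Zinc finger genes had 4 of 5 placed loci detected, led by ZFP91 and by ZNF768 (ENSBTAG00000043974) at 33.8 ± 5.05 FPKM, with ZNF211 (ENSBTAG00000054731) at 5.47 ± 1.297 (SD, n = 5). Transmembrane and open reading frame genes had 5 of 7 detected, with TMEM123 (ENSBTAG00000049233) at 40.3 ± 6.36, KIAA2026 (ENSBTAG00000047550) at 28.9 ± 5.29 and TMEM64 (ENSBTAG00000011268) at 8.90 ± 3.05 FPKM. Histone genes had 3 of 4 detected, MHC and immune receptor genes 2 of 5, olfactory receptors 2 of 8, and interferon-response genes 2 of 2. Ribosomal proteins and the respiratory chain each had 1 of 2 detected, and solute carriers, the ubiquitin system and the collagens 1 of 1. No placed locus carried a sarcomere symbol.

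Loci placed at immune genes were mostly low, and a few differed between animals. BOLA-DRB3, the bovine MHC class II beta chain that presents peptide to helper T cells, was represented by ENSBTAG00000013919 on chromosome 23 from 25723715 to 25735337. Libraries 1 to 5 gave 54.7, 33.5, 33.1, 54.1 and 23.4 FPKM for it. Libraries 1 and 4 were thus high and library 5 low. IFI16, an interferon-inducible sensor of DNA, had its locus (ENSBTAG00000011511) at 18.3 FPKM in library 3, 12.2 in library 2 and between 7.07 and 8.23 in the other three. The cytokine gene IL32 (ENSBTAG00000050846) ran from 1.35 FPKM in library 4 to 13.5 in library 3. NNMT, an enzyme of nicotinamide metabolism, stood at 18.0 FPKM in library 1 and between 1.97 and 6.92 elsewhere (ENSBTAG00000008564). The locus at ICOSLG, a T cell costimulatory ligand, was more even, between 13.8 and 21.1 FPKM (ENSBTAG00000014880). Those at IFI47, IL15RA, LAIR1 and B2M averaged only 1.11 to 2.03 FPKM, and that at BOLA-DQA2 averaged 0.227. The symbol B2M also has a row of its own, not analysed here, so the locus does not give the level of B2M. These immune and metabolic loci were singled out after their values were seen, and no locus at an immunoglobulin gene reached 1 FPKM.

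Pseudogene loci were among the most abundant. ENSBTAG00000022278 on chromosome X, from 80601301 to 80601777, lay at the pseudogene LOC786430 and was at 428, 349.9, 758, 562 and 640.4 FPKM in libraries 1 to 5. ENSBTAG00000025385, at LOC784762, was at 388, 437, 477 and 473 FPKM in libraries 1 to 4 and at 234 in library 5. ENSBTAG00000016688, at LOC784938, was lowest in library 5 as well, at 254 FPKM against 363 to 477 elsewhere. The locus at RPL15P, a pseudogene of the ribosomal protein gene RPL15, ran from 37.3 FPKM in library 1 to 94.2 in library 4 (ENSBTAG00000015551). Pseudogene loci had the greatest median SD of the 6 classes placed on chromosomes, 0.45 on the log2(FPKM + 1) scale, against 0.33 at genes with a symbol. How far reads were shared with parent genes was not tested.

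Loci inside larger genes lay in several genes that skeletal muscle is known to use. The highest was ENSBTAG00000027629 on chromosome 27, from 36565855 to 36576598, inside ANK1, the ankyrin gene whose small muscle form sits in the sarcoplasmic reticulum. It was at 341, 497, 389, 435 and 437 FPKM in libraries 1 to 5. The other 2 detected loci inside ANK1 were far lower, at 21.3 ± 5.28 (ENSBTAG00000054394) and 12.2 ± 3.86 FPKM (ENSBTAG00000003275; SD, n = 5). All 3 were highest in library 2. ANK1 itself had no row, and whether these loci are parts of its transcripts was not tested. The short locus ENSBTAG00000034496, inside LOC101907965 on chromosome 22, differed more between animals, with 469 FPKM in library 3, 74.7 in library 5 and 176 to 191 in the others.

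Short loci with high FPKM lay inside MEF2C, a transcription factor of muscle differentiation, and PPP3CA, the catalytic subunit of calcineurin. ENSBTAG00000050008, within MEF2C, spans 309 bases on chromosome 7 from 88246936 to 88247244. Its FPKM was 241, 303, 285, 177 and 225 in libraries 1 to 5, a mean of 246 ± 50.1, while the row named MEF2C averaged 65.4 ± 10.2. ENSBTAG00000054325, within PPP3CA, averaged 159 ± 17.7 FPKM against 34.3 ± 4.39 for the row named PPP3CA (SD, n = 5). Each locus was higher than the named row in all 5 libraries, but the loci span only 309 and 264 bases. What so short a length does to FPKM was not tested. The spans of locus and named row did not touch in the table in either case, so the named row does not cover the place of the locus.

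Dystrophin, the protein that links the fibre's cytoskeleton to its membrane, is encoded by DMD, and dystonin, a cytoskeletal linker, by DST; neither had a row of its own. ENSBTAG00000008248 covered 696390 bases of chromosome X inside DMD and was at 100.3, 117, 92.2, 67.8 and 115 FPKM in libraries 1 to 5. The 2 loci inside DST moved together: ENSBTAG00000021237 was at 132, 134, 96.2, 73.1 and 112 FPKM, and ENSBTAG00000051082 at 119, 121, 83.3, 62.0 and 90.9. All 3 were lowest in library 4 and highest in library 2. A locus inside PHKA1, the muscle subunit of phosphorylase kinase, was lowest in library 5 at 167 FPKM, with library 4 next at 187 (ENSBTAG00000051767).

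Further loci lay inside genes of the membrane system and the thin filament. Junctophilin 2, encoded by JPH2, holds the transverse tubule to the sarcoplasmic reticulum. Its 2 loci averaged 88.0 ± 13.3 (ENSBTAG00000052443) and 51.3 ± 6.58 FPKM (ENSBTAG00000052404); the first was lowest in library 1 and the second in library 4. The locus inside TPM1, an alpha-tropomyosin gene, had 85.2, 53.0, 46.4, 18.5 and 14.4 FPKM in libraries 1 to 5 (ENSBTAG00000040590). The row named TPM1 averaged 11.8 ± 2.71 FPKM (SD, n = 5), lower than the locus in every library.

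In all, 10 RefSeq genes with a symbol held at least 2 detected loci each. HERC1, a giant ubiquitin ligase gene, held 4, with means of 53.6, 37.9, 36.1 and 27.2 FPKM (ENSBTAG00000054388, ENSBTAG00000052707, ENSBTAG00000051076 and ENSBTAG00000019474). The row named HERC1 averaged 8.67 FPKM, but its span touched none of these 4 loci. The 2 loci inside ANK2, another ankyrin gene, lay at 31.3 ± 3.64 (ENSBTAG00000002392) and 29.9 ± 3.41 FPKM (ENSBTAG00000048956). Those inside SYNE1, which encodes a linker of the nucleus to the cytoskeleton, lay at 11.99 ± 3.07 (ENSBTAG00000052173) and 8.51 ± 2.34 (ENSBTAG00000054597; SD, n = 5). The row named SYNE1 averaged 24.6 ± 4.13 FPKM, above both of its loci, and its span did not touch theirs. Further loci were inside KIAA1328, MORC4 and PARD3B, all between 2.63 and 14.2 FPKM.

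For 61 of the 249 detected loci inside a larger gene the host's symbol had a detected row of its own, and the order went either way. The locus was higher than the named row in all 5 libraries in 28 cases and lower in all 5 in 25, and the order differed between libraries in 8. The locus inside ATP2A2, the calcium pump of slow fibres, was at 12.1 ± 5.39 FPKM (ENSBTAG00000052539) where the named row averaged 1177 ± 133. The locus inside LAMA2, a laminin chain of the muscle basement membrane, was at 85.1 ± 3.26 FPKM (ENSBTAG00000054952) and the named row at 37.3 ± 3.69 (SD, n = 5). In 36 of the 61 cases, that of LAMA2 among them, the spans of locus and row did not touch in the table.

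Library 4 was the lowest of the 5 for many of these loci. Of the 678 detected loci 261 (38.5%) had their lowest value in library 4, where 23.1% of all detected genes did and 21.1% of those with a symbol. The next most frequent was library 5 with 140 loci, while libraries 1, 2 and 3 were lowest for 95, 89 and 93. Library 1 was the highest for 200 loci (29.5%), where 24.3% of all detected genes were highest in it, and library 4 was the highest for 78. Among genes with a symbol, by contrast, library 4 was the highest for 27.2%. The median deviation of the loci from their own mean on the log2(FPKM + 1) scale was 0.13, 0.08, 0.08, -0.19 and -0.08 in libraries 1 to 5, and for genes with a symbol it lay between -0.03 and 0.03. With 1 library per animal no test of this difference is possible, and the animal, its dissection and its library preparation cannot be told apart.

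**Figure D3:**
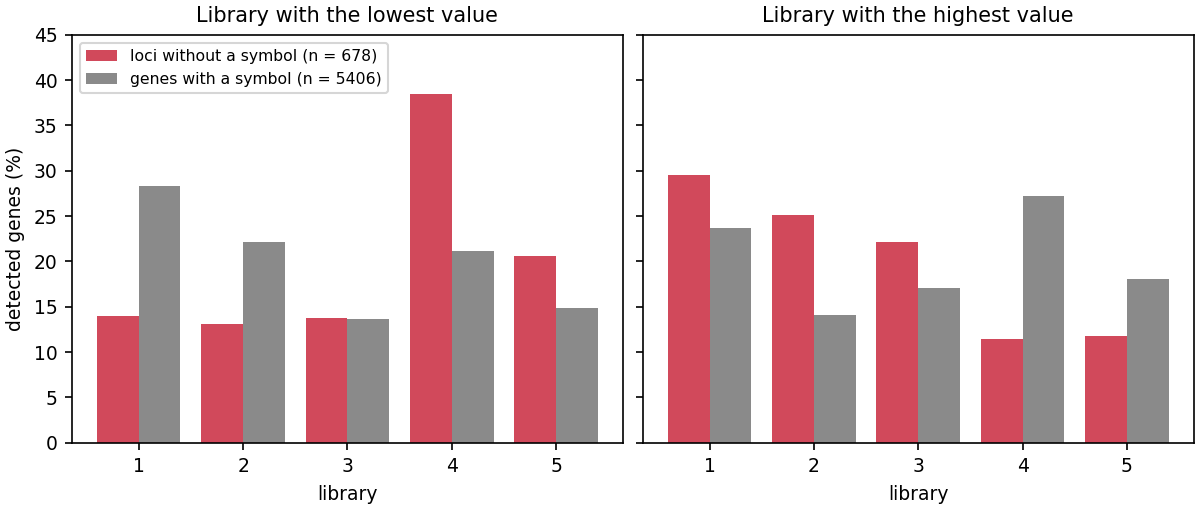
Share of detected loci without a symbol (red, n = 678) and of detected genes with a symbol (grey, n = 5406) whose lowest (left) or highest (right) value was in each library. Library 4 was lowest for 38.5% of the loci and 21.1% of the genes with a symbol.

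The lower values in library 4 were not shared evenly. Of detected loci inside larger genes 49.4% (123 of 249) were lowest there, of those at genes with a symbol 47.1% (48 of 102), of those at LOC genes 34.8% (46 of 132), and of those at pseudogenes 16.3% (16 of 98). The median deviation in library 4 was -0.27 inside larger genes, -0.25 at genes with a symbol and -0.03 at pseudogenes, and that in library 1 was 0.23, 0.18 and 0.01 for the same classes. Where host and locus both had detected values, 36 of the 61 loci were lowest in library 4, and 18 of the 56 different host rows.

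**Figure D4:**
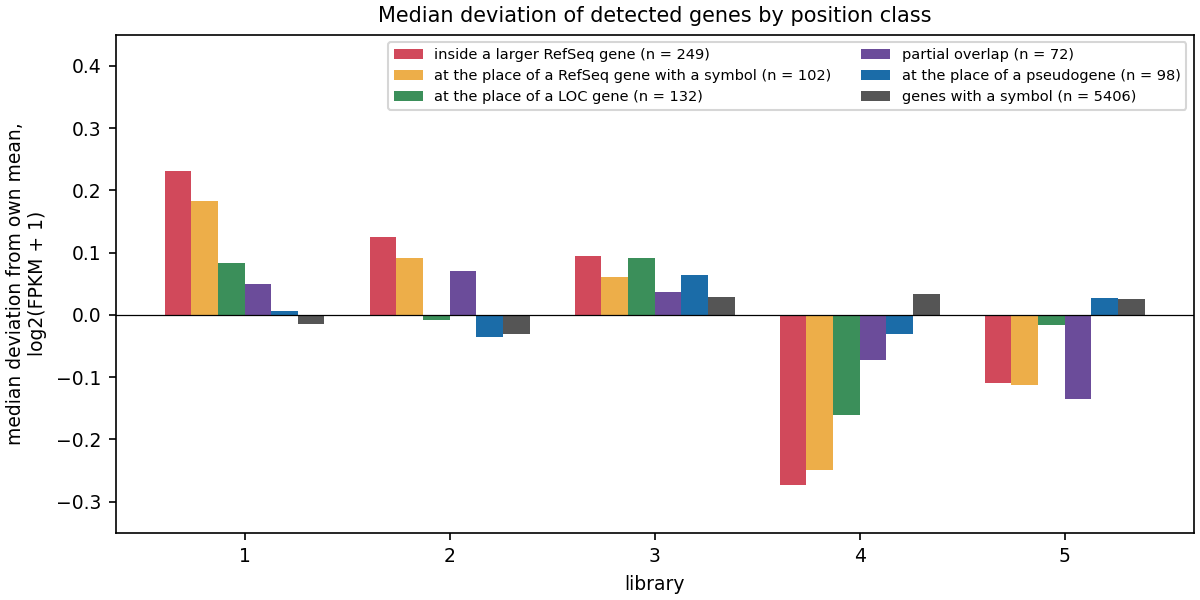
Median deviation from the own mean over the 5 libraries, on the log2(FPKM + 1) scale, of detected loci in 5 position classes and of genes with a symbol (dark grey), by library. Loci inside larger genes stood at 0.23 in library 1 and -0.27 in library 4, and loci at pseudogenes near 0 in both.

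Span moved with this pattern in both sets. Among the detected loci, 23.0% of those under 1000 bases were lowest in library 4, 40.5% from 1000 to 9999, 46.2% from 10000 to 99999 and 58.3% at 100000 bases or more. Among genes with a symbol the shares in the upper 3 classes were 10.2%, 19.9% and 34.5%, and none of 24 under 1000 bases. The loci without a symbol were thus more often lowest in library 4 within each class, although they are shorter as a set. Library 4 also held the largest mitochondrial share of summed FPKM, 15.3% against 10.3% to 11.97% in the others, and the largest sum of fibre markers. The part of these in the pattern was not tested.

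The loci varied more between animals than named genes at the median. The SD over 5 libraries of log2(FPKM + 1) had a median of 0.37 over the 678 detected loci and 0.24 over genes with a symbol. An SD of at least 1 was reached by 45 loci (6.64%), where 3.58% of all detected genes reached it. A single library far from the other four, by Dixon's gap ratio (the gap to the nearest other value over the whole range, with a limit of 0.71), was found for 44 loci (6.49%), near the 7.41% over all detected genes. Library 4 was that library in 13 of the 44, and in 94 of the 407 genes with a symbol that met the limit. Library 1 was that library for 6 of the loci and 143 of those genes.

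Several of the most variable loci were nearly on or off. ENSBTAG00000038476 on chromosome 3, which overlaps the histone gene H2AC18 in part, was at 54.7 FPKM in library 4 and at 0.0435, 0.0320, 0 and 0 in libraries 1, 2, 3 and 5. ENSBTAG00000031764 had 47.8 FPKM in library 3 alone, with no other library above 0.717. ENSBTAG00000051376 had 21.6 FPKM in library 5, with no other above 0.187. Others were high in some libraries and low in the rest. For ENSBTAG00000040564, which spans 177 bases, libraries 2 and 4 gave 45.9 and 47.0 FPKM and the others 1.39 to 3.42. By the deposited coordinates this locus lies inside PREPL, whose own row ran only from 14.4 to 20.1 FPKM. For ENSBTAG00000053969, at LOC514507, libraries 1 and 5 gave 22.8 and 21.4 FPKM and the others no more than 1.03. ENSBTAG00000023487, at the pseudogene LOC338087, spans 261 bases. It had 49.7 to 61.9 FPKM in libraries 1, 4 and 5 but 2.86 and 3.36 in the other pair.

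The remaining 4 of the 10 most variable loci also differed by library without a shared order. For ENSBTAG00000007820, libraries 2 and 5 gave 37.1 and 27.8 FPKM and the others no more than 1.68. ENSBTAG00000051015, which overlaps no RefSeq gene, had 10.03 and 10.2 FPKM in libraries 2 and 3 and was listed at 0 in the other three. ENSBTAG00000027075 was at 2.54 FPKM in library 2 and at 26.3 or more elsewhere, and ENSBTAG00000050071, on a scaffold, had 7.92 and 8.53 in libraries 1 and 4, the others reaching 0.251 at most. No pair of these 10 loci lay inside the same RefSeq gene. ENSBTAG00000051015 and ENSBTAG00000050071 span only 343 and 243 bases, and what so short a length does to FPKM was not tested.

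**Figure D5:**
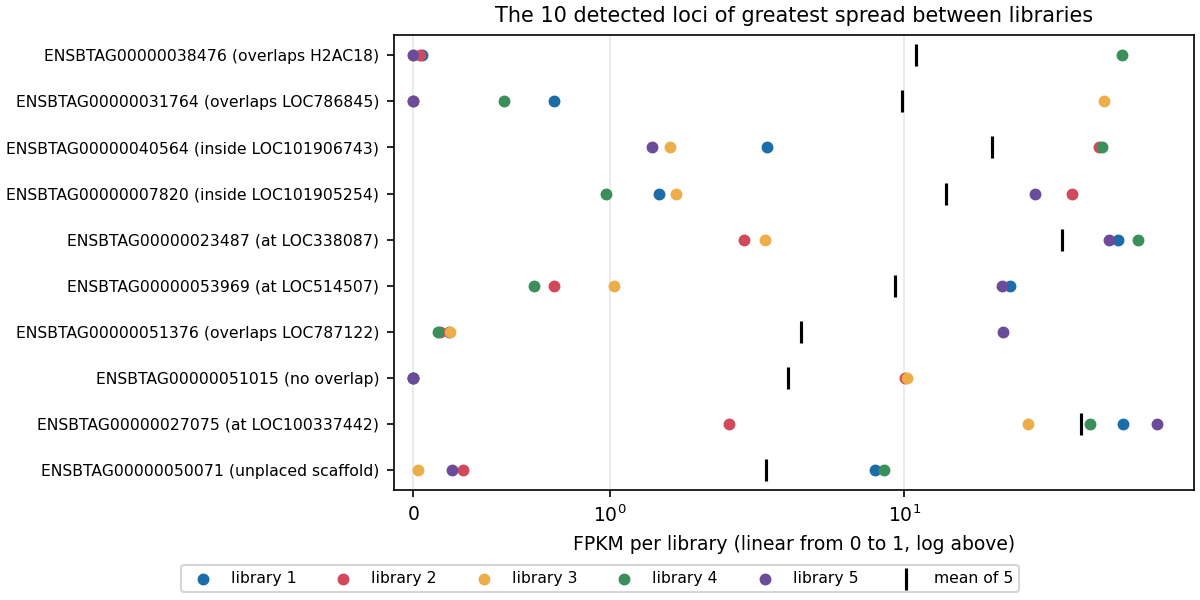
FPKM of each library (coloured points) and mean (black bar) for the 10 detected loci of greatest SD, on an axis that is linear from 0 to 1 and logarithmic above. Each locus has at least 1 library at or below 2.86 FPKM and another at 8.53 or above.

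At the other end, some loci hardly differed between animals. The most even locus of at least 10 FPKM was ENSBTAG00000045568, at the pseudogene LOC781724 on chromosome 24, at 75.3 ± 2.23 FPKM (SD, n = 5) and between 71.8 and 77.5 in every library. The LAMA2 locus ENSBTAG00000054952 followed, and ENSBTAG00000006383, at LOC132344361 on chromosome X, was at 153 ± 7.70 FPKM. Further even loci lay inside STAG1, a cohesin subunit gene, at 24.8 ± 1.29 FPKM (ENSBTAG00000052750; inside PCCB by the spans of the table, where the STAG1 row does not reach it), and at PTCD1, a mitochondrial RNA-binding protein gene, at 11.97 ± 0.840 (ENSBTAG00000020440). The other 5 of the 10 most even loci had means between 12.4 and 30.1 FPKM.

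Loci at and around histone genes on chromosome 23 stood high in library 4, unlike most loci. ENSBTAG00000049949, from 31696654 to 31708940, was at 158, 199, 208, 287 and 221 FPKM in libraries 1 to 5 and overlaps LOC521580 in part. The locus at H2AC10, ENSBTAG00000052895, lies within its span and was at 23.1, 18.0, 17.6, 27.4 and 17.2 FPKM. That at H2AC8, ENSBTAG00000048743, was at 7.93, 6.67, 6.23, 9.96 and 5.72 FPKM, and ENSBTAG00000050080, which overlaps the first, ran from 42.4 in library 1 to 98.6 in library 4. All 4, named after values were seen, were highest in library 4, as were 11.5% of detected loci and 27.2% of detected genes with a symbol. The first, second and last overlap each other in span, and histone genes occur in closely similar copies, so these values may not be independent. The H3C13 locus on chromosome 3 (ENSBTAG00000050881) was highest in library 1, at 4.21 FPKM.

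The rule's threshold on chromosome 2 lay in a wide gap. The least abundant locus left out averaged 5389 FPKM and the most abundant one kept, ENSBTAG00000040602 at LOC515042, averaged 96.9 ± 10.7 FPKM (SD, n = 5). The 4 loci left out all had their lowest value in library 4, between 3784 and 5918 FPKM.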

How the data were processed

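Total RNA of longissimus dorsi from 5 animals was sequenced, 1 library each. Per the file headers, the authors deposited 1 FPKM value for each transcript in each library. Named in the submitters' processing notes are UMD3.1, HTSeq 0.6.0 and DESeq2 1.10.1, with no role given. The aligner, the program that computed FPKM and the annotation version are not given in the sources used here. Of 7418 genes matched by symbol to the ARS-UCD2.0 table, 7392 (99.6%) overlapped their position there although the notes name another build, so coordinates are printed as deposited with no build claimed. RefSeq entries could be matched by position only, a step chosen after seeing the data. No sequence was used here.

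Transcript FPKM were summed per gene identifier and analysed as log2(FPKM + 1), with Python 3.11.15, numpy 2.4.6, pandas 2.3.3 and matplotlib 3.10.9. All 5 libraries formed 1 group, so no test between conditions was possible, and counts and medians stand beside those of genes with a symbol, with no p. Exact zeros can be failed estimates and are given as listed at 0. Ties for the lowest value (5 detected loci) went to the lower-numbered library.

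The members and lists were chosen with earlier results of these data known. Named loci were the 20 of highest mean, the 10 of greatest SD, the 10 most even ones averaging 10 FPKM or more, the 3 highest of each class with 3 or more detected members, and the locus nearest the threshold. Loci inside larger genes, immune loci, the histone cluster and others with no second row were named after values were seen. Some loci that these rules name are not reported here. The scripts were tested on simulated data. Alternatives were pseudocount, detection limit, TPM, median-ratio size factors, the highest transcript, other sets of loci, and leaving out each library.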

Additional observations from a re-analysis of the deposited data

Results flagged for a closer look

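Single libraries stood apart from the other four, by the gap ratio over 5 libraries, for 11 of the 98 loci selected for naming, where 7.41% of all detected genes met the same limit and chance gives about 1 in 20 groups. Of the 11, 3 were among the 10 loci selected for the greatest SD. Library 4 stood low for the KIF1B locus ENSBTAG00000054239 (123 FPKM), the KIAA2026 locus ENSBTAG00000047550 (19.5 against 30.2 to 32.2 elsewhere), the locus ENSBTAG00000051855 inside TMEM245 (47.0 against 74.1 to 82.1) and the JPH2 locus ENSBTAG00000052404 (40.0 against 51.6 to 56.7). Library 4 stood high for ENSBTAG00000038476 (54.7 FPKM).

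Library 2 stood low for ENSBTAG00000048722, at LOC101906178 (50.1 FPKM against 149 to 226), and high for the HERC1 locus ENSBTAG00000019474 (32.9 FPKM) and the PARD3B locus ENSBTAG00000051630 (9.67 FPKM). Library 3 stood high for ENSBTAG00000031764 (47.8 FPKM). Library 5 stood low for the pseudogene locus ENSBTAG00000025385 (234 FPKM) and high for ENSBTAG00000051376 (21.6 FPKM).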

How the results depend on the processing

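No paired analysis was possible because the 5 libraries form 1 group. The count of detected loci, 678, was 381 with a limit of 5 FPKM and 1220 with none. It stayed within 1.5 times under every other setting, with 936 as TPM and 522 with 1 FPKM required in every library. With single libraries left out it was 666 to 686. Loci with 1 library apart numbered 180 with no limit, 66 as TPM and 29 with 1 FPKM required in every library. They numbered 35 to 57 with single libraries left out. The median level of 2.72 on the log2(FPKM + 1) scale became 3.80 with a limit of 5 FPKM, 1.20 with none, 3.24 with 1 FPKM in every library, 2.45 with a pseudocount of 0.1 and 3.89 as TPM (2.67 to 2.74 with single libraries left out). The median SD of 0.37 became 0.348, 0.301, 0.340, 0.473 and 0.537 under the same settings in that order (0.343 without library 4, up to 0.380 without another). The share of summed FPKM was 18.9% with the 4 chromosome 2 loci, 5.74% for loci overlapping no named gene and 6.28% to 6.69% with single libraries left out. The share lowest in library 4, tried under settings chosen after seeing the data, was 43.6% with a limit of 5 FPKM and 44.4% without loci under 1000 bases. With one of the other libraries left out it was 41.3% to 46.9%, where 24.9% to 25.9% of genes with a symbol were lowest there. As TPM it was 40.5% against 30.0% of genes with a symbol. TPM moved the mean log2 of 90 of the 98 named loci by more than their SD, since every value is multiplied by 4.48 or more. The causes of the other changes were not tested, and depth, being unknown, sets no limit here.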

Other observations

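In the table's own coordinates, 185 loci lay wholly inside the span of a gene with a symbol, and for 55 of these both were detected. The mean of the locus was above that of the gene around it in 26. ENSBTAG00000048722 inside EPS15, an endocytosis gene, was at 50.1 to 226 FPKM, while EPS15 had 21.5 and 14.5 FPKM in libraries 3 and 4 and was listed at 0 elsewhere. In these 55 pairs 20 loci were lowest in library 4, as were 13 of the 53 different surrounding genes.

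Olfactory receptors, genes of smell that other tissues transcribe at low levels, were mostly under 1 FPKM. Of 8 loci placed at such genes, the highest was at OR51A57 (ENSBTAG00000051654), from 1.45 FPKM in library 4 to 6.23 in library 3, and that at OR4P45 was listed at 0 in all 5. The locus at the haemoglobin gene HBA1 (ENSBTAG00000054844) reached at most 0.453 FPKM.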
